A study of Homo sapiens with 2 samples.

Results

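The SLC25 genes encode the mitochondrial carriers, the largest of the solute carrier families in human cells. The members described here are the protein-coding genes whose symbol begins with SLC25A followed by a number. The annotation lists 48 such genes. Transcripts of 47 of them were in the table, and SLC25A24, a calcium-regulated ATP-magnesium/phosphate carrier, was not analysed here. Of the 47, 37 had a mean of at least 1 TPM over both libraries, of 11582 genes in all that passed this minimum. TPM is an abundance corrected for transcript length and scaled to the same total in each library, so levels can be compared between genes. Family members that go by other symbols, such as the uncoupling proteins UCP1, UCP2 and UCP3 and the outer membrane proteins MTCH1 and MTCH2, are outside this rule.

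Most of these carriers sit in the inner mitochondrial membrane, which is closed to ions and polar metabolites. Each is built from repeats of a paired transmembrane helix and exchanges one small substrate for another, or moves it together with protons. They connect ATP synthesis, the citric acid cycle, the urea cycle, haem and iron-sulfur cluster assembly and fatty acid oxidation to the cytosol. In the liver they carry intermediates of ammonia disposal, gluconeogenesis and lipid synthesis. The carriers are made in the cytosol from nuclear genes and imported through the TOM and TIM22 complexes.

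HepG2, an established line of human liver cancer cells, had been given a cassette in which doxycycline (Dox) switches SAMD4B on, and both libraries came from these cells. SAMD4B is a human relative of the fly protein Smaug, an RNA-binding protein that represses mRNAs. One library was grown without Dox and 1 with Dox at 1 µg/ml for 48 h, in the same supplemented medium. Each group is 1 library, so there is no spread between replicates and no p-value, and every difference is between these 2 libraries. The labels name no clone or pool for the cassette line. HepG2 lacking the cassette but exposed to Dox was not analysed here, so effects of Dox and of SAMD4B cannot be told apart.

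SAMD4B was at 47.5 TPM without Dox and 261 with it, as the labels state. The hepatocyte-lineage markers were present, with AFP at 13406 and 12140 TPM and ALB at 445 and 407 TPM. The 7 hepatocyte markers summed to 21547 and 19618 TPM, the 4 fibroblast markers to 4.77 and 7.53 TPM, the 3 endothelial markers to 4.57 and 4.64 TPM and the 3 muscle markers to 7.55 and 9.46 TPM. Among markers of other cell types, PTPRC, CD3E and VWF were listed at 0 in both libraries, while LYZ, fixed as an immune marker, was at 1583 and 1742 TPM. CD68, also an immune marker, was at 10.7 and 11.3 TPM, and the 4 immune markers summed to 1594 and 1753 TPM. The endothelial marker PECAM1 was at 4.57 and 4.55 TPM and the muscle marker CKM at 6.21 and 8.17 TPM. Depth, estimated from steps in the low TPM values, was 18243643 fragments without Dox and 23749286 with Dox on matched transcripts of at least 600 nt. Differences are log2 fold changes, with Dox over without, after 1 was added to each TPM, a scale that shrinks the change of low genes. A second measure is the ratio of depth-scaled estimated fragments, with a 95% binomial interval (Clopper-Pearson) that covers counting error only.

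As a family, the carriers differed little. Their TPM summed to 2895 without Dox and 2695 with Dox. Among the 37 genes compared, 18 were higher with Dox (53.0% of all genes were) and 19 were lower (47.0% of all genes). The median log2 fold change was -0.03, beside 0.02 over all genes. One carrier gene was at least 1.5-fold higher (5.32% of all genes) and 3 were at least 1.5-fold lower (3.90% of all genes), while 13 differed by less than 1.1-fold (38.8% of all genes). The higher gene was SLC25A36, and the lower ones were SLC25A42, SLC25A22 and SLC25A18. In 1 culture per group, a lower level of an mRNA in every cell and a smaller share of cells that hold it cannot be told apart.

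**Figure D1:**
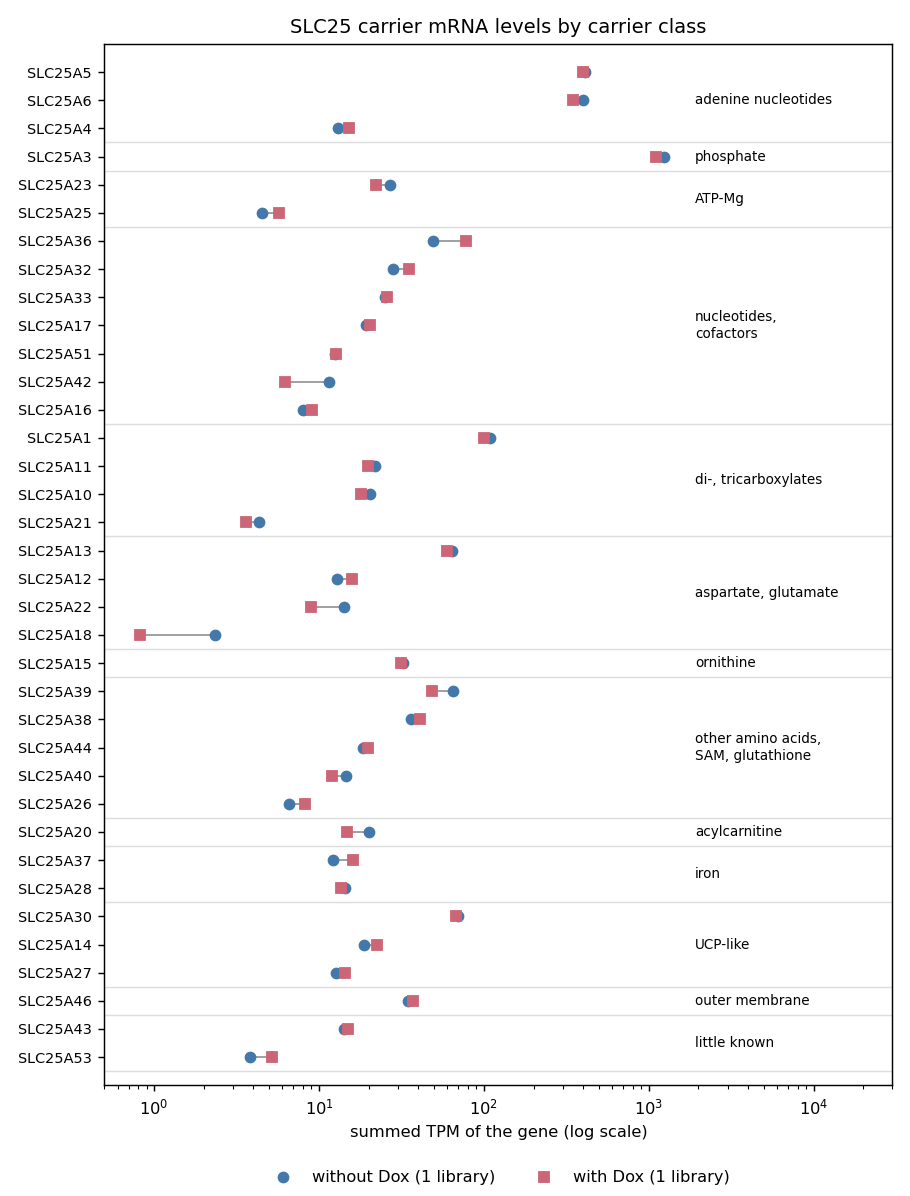
Summed TPM (log scale, x axis) of 36 of the 37 SLC25 genes with a mean of at least 1 TPM, grouped by transported substrate, with circles for the library without Dox and squares for the library with Dox. SLC25A3, SLC25A5 and SLC25A6 lie far to the right of the rest, and the widest gaps between circle and square belong to SLC25A36, SLC25A42, SLC25A22 and SLC25A18.

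**Figure D2:**
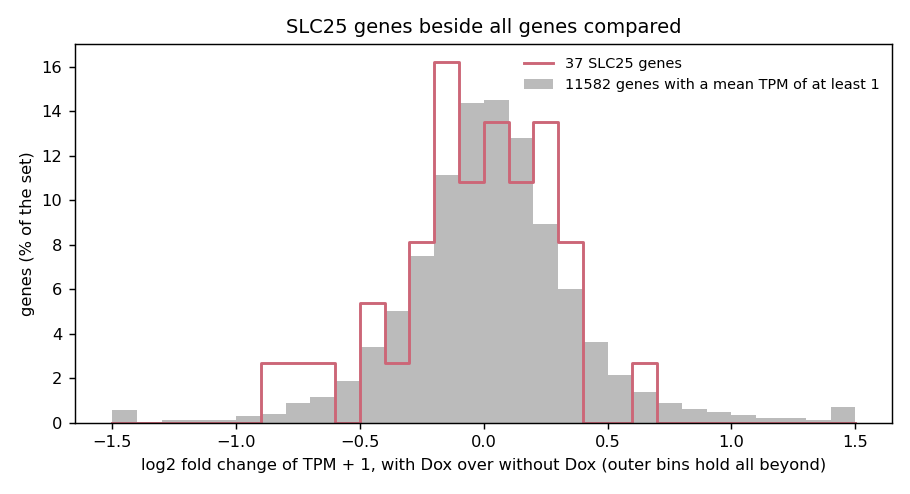
Share of genes (y axis, % of each set) in bins of log2 fold change of TPM + 1 (x axis), as grey bars for all 11582 genes compared and a red line for the 37 SLC25 genes. Most carriers fall in the same central range as all genes, with the 4 genes past 1.5-fold at the edges.

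Where fragments could be counted on at least 80% of a gene's TPM (33 of the 37 carriers), the counting interval lay below 1 for 14 carriers (29.1% of all genes with such an interval) and above 1 for 6 (24.7% of all genes). The median log2 fragment ratio was -0.10 for the family and -0.02 for all genes. These intervals compare the 2 libraries and say nothing of variation between cultures.

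The ADP/ATP translocases export ATP from the matrix in exchange for ADP. SLC25A5, the isoform typical of dividing cells, stood at 408 TPM in the library without Dox and 399 TPM in the other (ratio of fragments 0.94, interval 0.91 to 0.98). SLC25A6, expressed in most tissues and located in the pseudoautosomal region of the sex chromosomes, was at 400 and 349 TPM (ratio of fragments 0.85, interval 0.82 to 0.87). Nearly all of each level lay on 1 coding transcript, ENST00000317881 of SLC25A5 (407 and 397 TPM) and ENST00000381401 of SLC25A6 (397 and 345 TPM). Near-equal without Dox, the 2 genes stood at a TPM ratio of 1.15 with Dox. SLC25A4, the heart and muscle isoform, was at 12.9 and 15.2 TPM, with an interval that held 1 (0.99 to 1.28). Most of this lay on ENST00000491736, annotated for nonsense-mediated decay (9.37 and 11.2 TPM), and the coding ENST00000281456 was at 3.58 and 4.01 TPM. The germline isoform SLC25A31 was listed at 0 in both libraries. These genes are similar in sequence, and Salmon shares fragments that match several transcripts, so the split among them is uncertain. Adding the TPM of annotated SLC25A pseudogenes to their parents left every carrier on its side of zero.

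A sequence pattern known from the family of the induced protein was also looked for, though binding was not tested. Proteins of the Smaug family bind short RNA hairpins whose loop begins with CNGG. The main coding transcript of every carrier was searched for the letters CNGG, followed by 0 to 3 further loop bases and closed by a stem of 5 pairs (A-U, G-C or G-U). SLC25A4, SLC25A5 and SLC25A6 held near-identical matches of 16 bases in their coding sequence, each across a splice junction. They are shown because 3 paralogues share them (sequences from GENCODE release 29 on GRCh38, as DNA letters, with the loop in capitals):
SLC25A4, chr4:185143476-185144771, plus strand: tgctgCAGGTCcagca
SLC25A5, chrX:119468619-119469668, plus strand: tgctgCAGGTGcagca
SLC25A6, chrX:1389720-1391906, minus strand: tgctgCAGGTCcagca
SLC25A4 and SLC25A6 shared this match letter for letter, and also a second one of 14 bases (tccttCTGGagggg). All 3 differed between the libraries by less than 1.5-fold, and not in one direction.

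SLC25A3, which carries phosphate for ATP synthesis and copper for cytochrome oxidase, was the most abundant member at 1240 TPM without Dox and 1103 with it (log2 fold change -0.17). Its transcript ENST00000547534, of 556 nt, held 45.2% and 48.3% of this level, and such short transcripts have uncertain TPM. The longer ENST00000549338 was at 532 and 440 TPM. Counted on its transcripts of 600 nt or more (53.0% of its TPM), the fragment ratio was 0.81 (interval 0.79 to 0.83). SLC25A3, SLC25A5 and SLC25A6 together made up 70.8% of the family's TPM without Dox and 68.7% with Dox, and the other 44 members summed to 847 and 844 TPM. The 4 members above a mean of 100 TPM, these 3 and SLC25A1, were all lower with Dox, by -0.20 to -0.03 on the log2 scale. Over all genes of any level 47.0% were lower, and the share among all genes above 100 TPM was not counted.

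The other carriers of adenine nucleotides exchange ATP-magnesium for phosphate under the control of calcium. SLC25A23 was at 26.8 and 22.3 TPM (ratio of fragments 0.88, interval 0.80 to 0.96) and SLC25A25 at 4.50 and 5.69 TPM (1.23, interval 1.04 to 1.47). The pair thus differed in opposite directions, though each by a small amount. SLC25A41 was below the minimum at 0.30 and 0.12 TPM.

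SLC25A36 (ENSG00000114120, chr3:140941830-140980961, plus strand) had the largest increase of the family on the scale of TPM + 1. In estimated fragments that of SLC25A27 was larger (1.46 against 1.43), but on fewer fragments and with its coding TPM lower. SLC25A36 imports and exports pyrimidine nucleotides, which mitochondria need to copy and transcribe their DNA. Its level was 49.3 TPM without Dox and 78.2 with it, a log2 fold change of 0.66. Fragments, countable for 77.0% of its TPM, gave a ratio of 1.43 (interval 1.35 to 1.51), which is below 1.5. The difference lay in several of its transcripts. The coding transcript ENST00000446041 (4638 nt) was at 24.6 and 38.7 TPM, 49.8% and 49.5% of the gene's level. The coding ENST00000324194 was at 4.94 and 7.09 TPM, the retained-intron ENST00000514629 at 7.96 and 15.4 TPM, and the retained-intron ENST00000511757 at 4.22 and 7.19 TPM. Others were lower: the coding ENST00000507429 at 2.76 and 2.46 TPM, and 3 annotated for nonsense-mediated decay, ENST00000648615 (0.88 and 0.11 TPM), ENST00000512506 (1.57 and 1.17 TPM) and ENST00000502594 (0.31 TPM and 0). SLC25A33, the other pyrimidine nucleotide carrier, has 1 matched transcript and was at 24.98 and 25.96 TPM (ratio of fragments 1.01, interval 0.94 to 1.09). The TPM of SLC25A36 relative to SLC25A33 was 1.97 without Dox and 3.01 with Dox.

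SLC25A42 (ENSG00000181035, chr19:19063999-19112888, plus strand), which brings coenzyme A into the matrix, differed the other way. It was at 11.5 TPM without Dox and 6.22 with it, a log2 fold change of -0.80 and a fragment ratio of 0.57 (interval 0.48 to 0.67). Its coding transcript ENST00000318596 was at 8.44 and 4.86 TPM, the retained-intron ENST00000600251 at 1.55 and 0.43 TPM, and the retained-intron ENST00000597661 at 0.77 and 0.27 TPM. It was the only carrier counted as at least 1.5-fold lower when transcripts listed at 0 in 1 library were left out. SLC25A16, a proposed coenzyme A carrier, was at 8.02 and 9.08 TPM, but its fragment ratio was 0.82 (interval 0.71 to 0.94). Its transcript ENST00000608053, of 263 nt and too short to be counted in fragments, was listed at 0 without Dox and was at 2.14 TPM with it.

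The hairpin search gave 1 match in the main transcript of SLC25A36, the carrier with the largest increase on the scale of TPM + 1, and 7 in that of SLC25A42, the carrier furthest below its level without Dox among those above a mean of 5 TPM. All 7 of the latter lay in the 3′ UTR, and the match of SLC25A36 in the coding sequence. They are printed because these carriers differed by over 1.5-fold in opposite directions on that scale (GRCh38, plus strand, loop in capitals):
SLC25A36, chr3:140973812-140973825: atatgCTGGtatat
SLC25A42, chr19:19111122-19111138: agacgCTGGCGCtgtct
SLC25A42, chr19:19111309-19111324: gggtgCGGGGGcgcct
SLC25A42, chr19:19111783-19111799: tccagCAGGTCCttggg
SLC25A42, chr19:19111807-19111822: ttgagCAGGCActtgg
SLC25A42, chr19:19112544-19112558: tgcccCAGGTgggtg
SLC25A42, chr19:19112682-19112697: cccggCAGGAGttggg
SLC25A42, chr19:19112766-19112782: ggtcaCTGGTCTtggtc
Such matches were common. At least 1 was found in 31 of the 37 carriers (83.8%) and in 74.8% of the main coding transcripts of 11024 genes, with 0.95 matches per kb in the carriers and 0.63 over all. The transcripts also differ in base composition, with 60.2% G and C for SLC25A42 and 37.4% for SLC25A36. SLC25A37 and SLC25A16, also with 7 matches each, were at log2 fold changes of 0.37 and 0.16, but in fragments SLC25A16 was lower (ratio 0.82). Their transcripts are longer, with 1.45 and 1.07 matches per kb, against 2.24 in SLC25A42. SLC25A18 and SLC25A22 were also at least 1.5-fold lower on the scale of TPM + 1. SLC25A18 had 5 matches (2.43 per kb), in the 5′ UTR and coding sequence, and SLC25A22 had 2 (0.72 per kb), in the 3′ UTR. Matches were densest in SLC25A39 (3.73 per kb), SLC25A10 (3.18) and SLC25A28 (2.99), at -0.42, -0.17 and -0.06. Overlapping matches were counted separately, and the order of densities depends on this. Examples are bases 240 to 255 and 241 to 254 of the SLC25A28 transcript, and 771 to 786 and 779 to 795 of that of SLC25A39. Of carriers with none, SLC25A20 was at -0.42 and SLC25A26 at 0.28. A link between matches and differences was not tested. Carriers with a match had a median log2 fold change of 0.05 and the 6 without had -0.19. Over all coding genes the medians were 0.02 and 0.03. SLC25A3 is among the 6 on its transcript of 556 nt alone, since its longer coding transcript ENST00000549338 was not searched. The median of -0.19 depends on that placing. For many of the carriers, the deposited levels belong to another version of the main transcript than the release searched. Among them are SLC25A4, SLC25A5, SLC25A6, SLC25A42, SLC25A10, SLC25A16, SLC25A37, SLC25A20 and SLC25A26. A match is a run of letters, and whether SAMD4B binds any of them was not tested.

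The remaining carriers of cofactors showed smaller differences. SLC25A32, which brings folate and FAD into mitochondria, was at 28.1 and 35.2 TPM (ratio of fragments 1.18, interval 1.09 to 1.28). SLC25A51, the NAD carrier, was at 12.5 and 12.7 TPM. SLC25A52 is a close copy of SLC25A51 and was at 0.36 and 0.38 TPM. SLC25A17, a cofactor carrier of peroxisomes, was at 19.3 and 20.2 TPM. Intervals of the last 3 held 1.

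**Figure D3:**
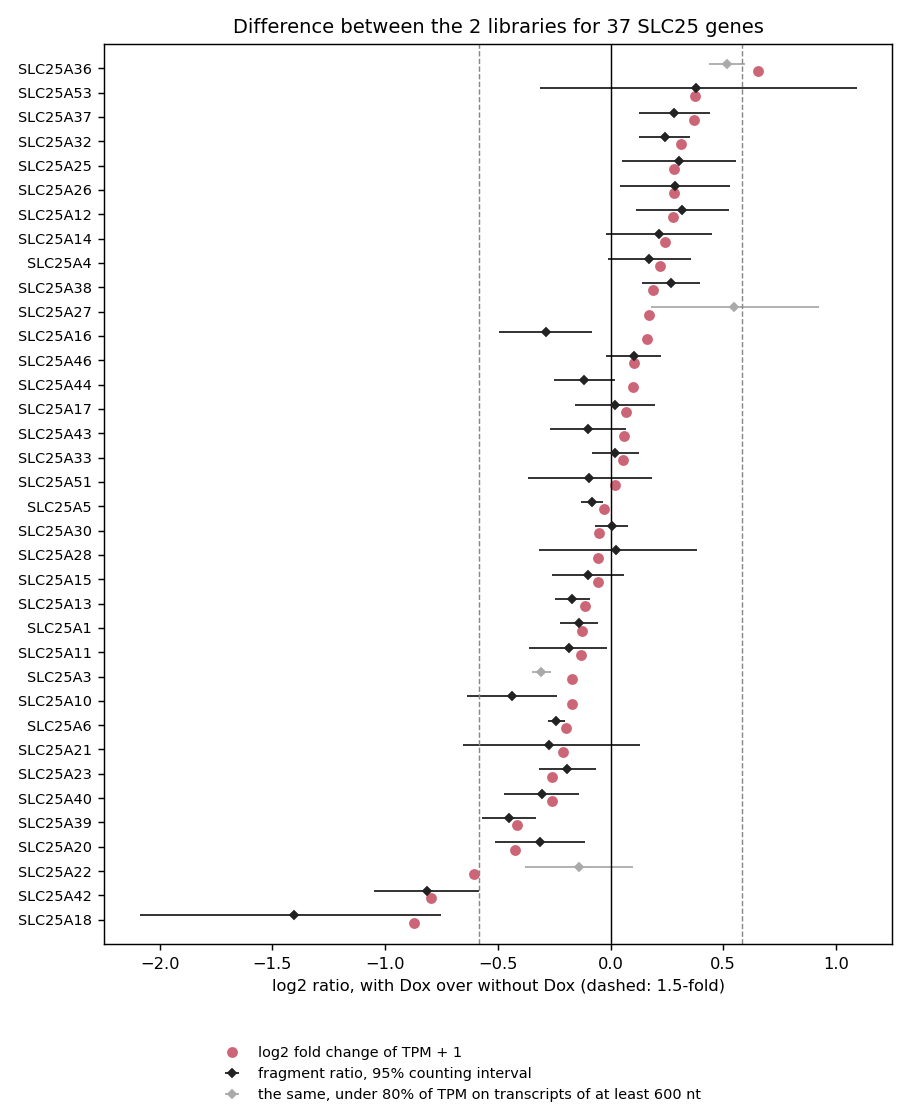
Log2 ratio with Dox over without Dox (x axis) for 36 of the 37 SLC25 genes, as red circles for TPM + 1 and diamonds for the ratio of estimated fragments with 95% counting intervals, grey where under 80% of the gene's TPM could be counted. SLC25A36 is at the top and SLC25A18 at the bottom. Circle and diamond lie on opposite sides of zero for SLC25A16, SLC25A28, SLC25A30, SLC25A43, SLC25A44 and SLC25A51.

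The 4 carriers of di- and tricarboxylates were all lower with Dox (47.0% of all genes were), each by less than 1.5-fold. SLC25A1 exports citrate for fatty acid and sterol synthesis and was at 109.4 TPM without Dox and 100.03 with it (ratio of fragments 0.91, interval 0.86 to 0.96). Its coding transcripts ENST00000215882 (83.3 and 80.3 TPM) and ENST00000451283 (17.49 and 13.02 TPM) were both lower. The oxoglutarate/malate carrier SLC25A11 was at 21.8 and 19.8 TPM (0.88, interval 0.78 to 0.99). The dicarboxylate carrier SLC25A10 was at 20.5 and 18.1 TPM (0.74, interval 0.64 to 0.85). Within SLC25A10 the coding transcript ENST00000350690 was at 13.5 and 9.19 TPM, while the retained-intron ENST00000573246 was at 2.25 and 6.26 TPM. SLC25A21, which carries oxoadipate, was at 4.30 and 3.59 TPM, and its interval held 1 (0.634 to 1.096).

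The aspartate/glutamate carriers feed the malate-aspartate shuttle and the urea cycle. The liver isoform SLC25A13 (citrin) was at 64.3 TPM without Dox and 59.3 with it (ratio of fragments 0.89, interval 0.84 to 0.94). SLC25A12 (aralar), the isoform of brain and muscle, was at 12.9 and 15.9 TPM (1.25, interval 1.08 to 1.44). The TPM of SLC25A12 relative to SLC25A13 was 0.20 and 0.27. Coding transcripts held only 27.5% and 34.2% of the SLC25A12 level, as ENST00000422440 at 3.54 and 5.42 TPM, and 93.7% and 92.7% of that of SLC25A13. In coding transcripts alone the ratio of the pair was 0.059 and 0.099, and the log2 fold change of SLC25A12 was 0.50 rather than 0.28.

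The proton-coupled glutamate carriers SLC25A22 and SLC25A18 were both at least 1.5-fold lower on the scale of TPM + 1, but each rests on transcripts listed at 0 in 1 library. SLC25A22 (ENSG00000177542, chr11:790475-798333, minus strand) was at 14.2 TPM without Dox and 8.96 with it, a log2 fold change of -0.61. The retained-intron ENST00000524891, of 560 nt, was at 4.40 TPM without Dox and listed at 0 with Dox. Its long coding transcript ENST00000320230 was at 6.61 and 5.35 TPM. Fragments, countable for 77.8% of its TPM, gave a ratio of 0.91 with an interval that held 1 (0.77 to 1.07). SLC25A18 (ENSG00000182902, chr22:17563439-17590994, plus strand) was the lowest of the 37 in summed TPM, at 2.33 and 0.82 TPM, a log2 fold change of -0.87. The level moved from ENST00000399813 (2.30 TPM and 0) to ENST00000327451 (0 and 0.82 TPM). In fragments these are about 60.7 without Dox and 29.9 with Dox, a ratio of 0.38 (interval 0.24 to 0.59).

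**Figure D4:**
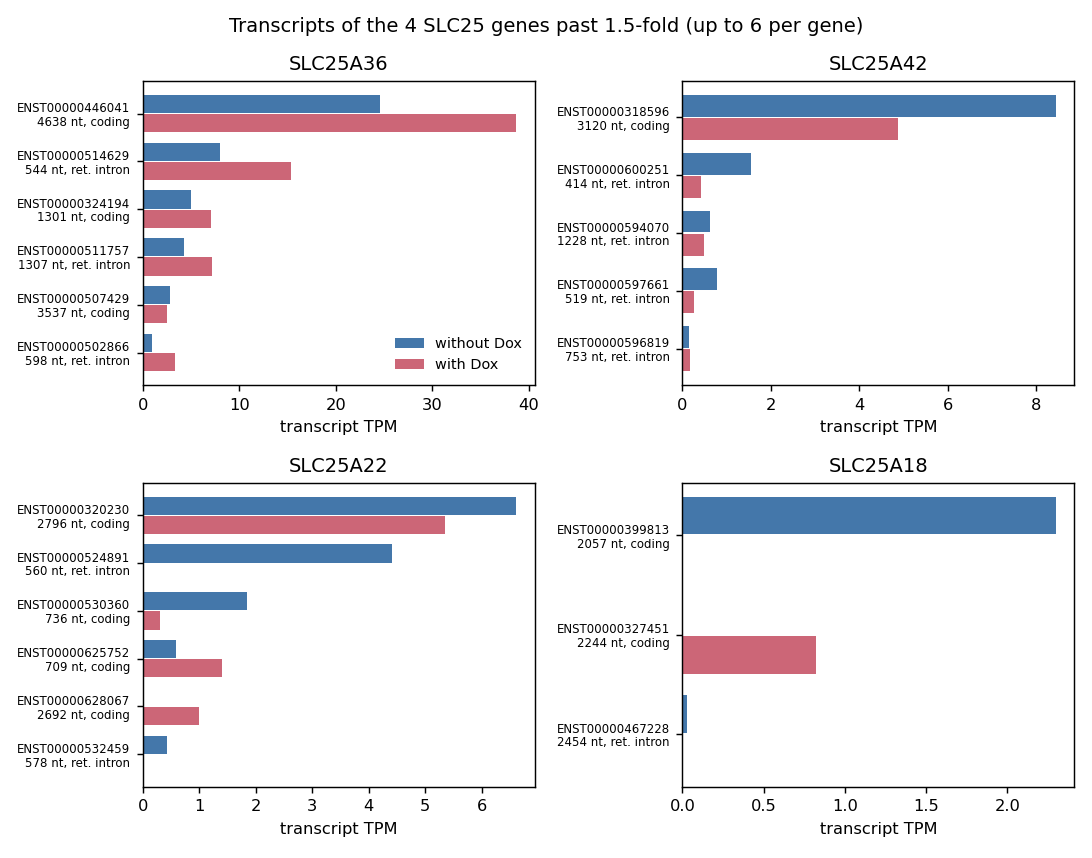
TPM (x axis) of up to 6 transcripts of each of the 4 SLC25 genes past 1.5-fold, in blue without Dox and red with Dox, with length and annotated type on the y axis. Several transcripts of SLC25A36 are longer in red, those of SLC25A42 mostly longer in blue, and SLC25A18 has no transcript with a visible bar in both libraries.

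Carriers of other amino acids and of glutathione went both ways. SLC25A39 and SLC25A40 import glutathione, and both were lower. SLC25A39 was at 65.2 TPM without Dox and 48.6 with it (ratio of fragments 0.73, interval 0.67 to 0.79), and SLC25A40 at 14.5 and 12.0 TPM (0.81, interval 0.72 to 0.91). For SLC25A39 the coding transcript ENST00000225308 was at 37.5 and 24.8 TPM, while ENST00000590194 was listed at 0 and at 4.67 TPM. SLC25A38, which supplies glycine for haem synthesis, was at 35.9 and 41.0 TPM (1.20, interval 1.102 to 1.316). Its second transcript differed between the libraries, with ENST00000645280 at 7.48 TPM and 0 and ENST00000643672 at 0 and 8.67 TPM. SLC25A26, the S-adenosylmethionine carrier, was at 6.57 and 8.21 TPM (1.22, interval 1.03 to 1.44). Its exons overlap those of LRIG1 on the opposite strand, which was at 20.2 and 9.04 TPM, and the sources used here do not state whether counting used strand. Opposite-strand overlaps in which both genes differed in one direction were those of SLC25A32 with DCAF13 (59.8 and 76.3 TPM), SLC25A25 with NAIF1 (4.26 and 5.79 TPM) and SLC25A40 with DBF4 (24.5 and 19.3 TPM). SLC25A11 and RNF167 (46.2 and 57.3 TPM) differed in opposite directions, and METAP1D, which overlaps SLC25A12, was at 22.3 and 22.5 TPM. How far reads of such pairs mix was not tested. SLC25A44, a carrier of branched-chain amino acids, was at 18.5 and 19.8 TPM with an interval that held 1.

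SLC25A15 brings ornithine into the matrix for the urea cycle and was at 32.5 and 31.2 TPM (ratio of fragments 0.93, interval 0.84 to 1.04). Its intronless relative SLC25A2 (0.06 TPM and 0) and the basic amino acid carrier SLC25A29 (0.64 and 0.47 TPM) were below the minimum. SLC25A20, which exchanges acylcarnitine for carnitine in fatty acid oxidation, was at 20.1 TPM without Dox and 14.7 with it (0.81, interval 0.70 to 0.93). The retained-intron ENST00000479050 was at 3.14 TPM and 0, and its coding ENST00000319017 at 15.9 and 13.9 TPM.

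The mitoferrins import iron for haem and iron-sulfur clusters. SLC25A37 (mitoferrin 1), best known from red cell precursors, was at 12.2 TPM without Dox and 16.1 with it (ratio of fragments 1.22, interval 1.09 to 1.36). SLC25A28 (mitoferrin 2), found in most tissues, was at 14.3 and 13.7 TPM (1.02, interval 0.80 to 1.30). The TPM of mitoferrin 1 relative to mitoferrin 2 was 0.86 and 1.18. Coding transcripts held 29.1% and 26.8% of the SLC25A37 level (3.55 and 4.31 TPM), below the coding level of SLC25A28 in both libraries (8.18 and 8.54 TPM). SLC25A37 moved from position 30 of the 37 to position 21, the largest shift in the order of the family. SLC25A3, SLC25A5, SLC25A6 and SLC25A1 held positions 1 to 4 in both libraries.

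Carriers related to the uncoupling proteins included SLC25A30, at 70.1 TPM without Dox and 67.7 with it (ratio of fragments 1.00, interval 0.95 to 1.06). Its transcript ENST00000463262, of 426 nt and annotated for nonsense-mediated decay, was at 13.5 and 6.86 TPM, while the coding ENST00000519676 was at 50.4 and 52.8 TPM. SLC25A14 was at 18.9 and 22.5 TPM (1.16, interval 0.99 to 1.37). SLC25A27 was at 12.7 and 14.4 TPM. On the 72.5% of its TPM that could be counted in fragments the ratio was 1.46 (interval 1.13 to 1.90), from 94.1 and 179 fragments. Its coding transcripts summed to 12.3 TPM without Dox and 11.1 with it, so they went the other way. SLC25A46, which lies in the outer membrane and takes part in mitochondrial fusion and fission, was at 34.5 and 37.2 TPM (1.07, interval 0.99 to 1.17). Its coding ENST00000504098 was at 5.78 and 11.2 TPM and ENST00000513807 at 11.3 and 8.99 TPM.

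Of the less well characterised members, SLC25A43 was at 14.3 and 14.9 TPM and SLC25A53 at 3.79 and 5.22 TPM, with intervals that held 1. Nearly all of the SLC25A53 level lay on the processed transcript ENST00000467290, and its coding transcript ENST00000594199 was at 0.057 and 0.072 TPM, so the printed level is not one of carrier-coding mRNA. SLC25A45 (1.26 and 0.66 TPM), SLC25A35 (0.59 and 0.30) and SLC25A34 (0.02 and 0.06) fell below the minimum mean. SLC25A47, a carrier largely restricted to liver, and SLC25A48 were listed at 0 in both libraries.

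The larger transcript types of the family held similar shares of the TPM in both libraries. Coding transcripts held 90.3% of the TPM of the 37 genes without Dox and 89.8% with Dox, retained-intron transcripts 6.19% and 6.25%, and transcripts annotated for nonsense-mediated decay 2.03% and 2.05%. These shares are set by the abundant members: in 5 of the 37 genes (SLC25A4, SLC25A12, SLC25A16, SLC25A37 and SLC25A53) coding transcripts held under 50% of the TPM without Dox. Over all protein-coding genes compared, coding transcripts held 89.9% and 90.0%, retained-intron transcripts 4.65% and 4.58%, and those annotated for nonsense-mediated decay 2.28% and 2.26%. Processed transcripts held 1.47% of the carriers' TPM without Dox and 1.85% with it, and 3.17% and 3.14% over all. Of 207 listed transcripts of the 37 genes, 57 were at 0 in 1 library only. They lay in 25 of the 37 genes and summed to 28.0 TPM without Dox and 33.6 with it, so they touch single genes more than the family. The same share over all genes was not counted, so these counts do not show whether the carriers differ from other genes in this.

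Promoters, from 250 bases before to 50 after the start, were matched by symbol for 32 of the 37 genes (RefSeq, GRCh38.p14) and searched on both strands for motifs of 2 factors known for nuclear-encoded mitochondrial genes. The NRF1 motif (GCGC, any base, then TGCGC) was in 3 of 32 carrier promoters (9.38%), those of SLC25A3, SLC25A11 and SLC25A51, and in 12.6% of the 9047 promoters of genes compared. The ETS motif CCGGAAGT, which GABP binds, was in 2 (6.25%), those of SLC25A17 and SLC25A46, and in 9.72% of the 9047. The log2 fold changes of these 5 carriers ran from -0.17 to 0.10. SLC25A36, SLC25A42, SLC25A22 and SLC25A18 had neither motif in this window. The factors themselves were at 7.74 and 5.99 TPM for NRF1 and 14.9 and 16.8 TPM for GABPA.

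Other genes of mitochondrial transport were taken from fixed lists, with the same fold of 1.5. Over all genes compared, 53.0% were higher and 47.0% lower, with a median log2 fold change of 0.02. At least 1.5-fold higher were 5.32% of all genes, and at least 1.5-fold lower 3.90%. The lists are small, and no list was tested against these shares. Of 16 genes of the carrier import route, 7 were higher and 9 lower (median log2 fold change -0.04). One was at least 1.5-fold lower. It was TIMM22, the pore of the TIM22 complex, whose single matched transcript was at 8.30 TPM without Dox and listed at 0 with Dox. As for SLC25A18 and SLC25A22, this difference rests on a transcript listed at 0 in 1 library. Any unmatched transcript of TIMM22 would be missed. Of 15 other inner membrane transporters, 4 were higher and 11 lower (median -0.07). SFXN3, a sideroflexin that carries serine, was at 13.1 and 7.45 TPM (ratio of fragments 0.53, interval 0.46 to 0.61), and the pyruvate carrier subunits MPC1 and MPC2 were both lower, at 102 and 77.1 TPM and at 47.8 and 39.7 TPM. The 3 outer membrane pores had VDAC1 at 294 and 245 TPM, VDAC2 at 326 and 340 TPM and VDAC3 at 176 and 164 TPM. MTCH1 was at 62.5 and 65.2 TPM, and UCP1, UCP2 and UCP3 were each below 1 TPM.

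Enzymes that use the carried substrates were counted in the same way, beside the same shares over all genes (53.0% higher, 47.0% lower, median 0.02). At least 1.5-fold higher were 5.32% of all genes, and at least 1.5-fold lower 3.90%. Of 12 enzymes of citrate metabolism and the malate-aspartate shuttle, 4 were higher and 8 lower (median -0.09), and 1 was at least 1.5-fold higher. It was GLUD1, glutamate dehydrogenase, at 334 TPM without Dox and 683 with it (ratio of fragments 1.98, interval 1.94 to 2.02). Of 5 urea cycle genes above the minimum, 4 were higher (median 0.25), with the mitochondrial arginase ARG2 at 12.3 and 20.7 TPM (1.61, interval 1.41 to 1.85). Of 5 genes of the carnitine shuttle, 2 were higher and 3 lower (median -0.13), with the carnitine acetyltransferase CRAT at 11.2 and 6.93 TPM (0.57, interval 0.48 to 0.68). Of 10 genes of iron, haem and cofactor metabolism, 2 were higher and 8 lower (median -0.20), none by 1.5-fold. ABCB8, a mitochondrial ABC transporter, was at 9.95 and 6.57 TPM. Of 8 regulators of mitochondrial biogenesis, 5 were higher and 3 lower (median 0.07), with ESRRA at 10.3 and 13.7 TPM but a fragment ratio of 1.02.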

How the data were processed

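Polyadenylated RNA of 1 HepG2 library without Dox and 1 with Dox was measured. The authors deposited TPM per Ensembl transcript (184844 transcripts, each column summing to 1000000). Trimmomatic, Salmon and the build GRCh38.p13 are named, per the submitters' processing notes. Tool versions, options, annotation release and strand setting: not given in the sources used here.

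Transcripts were matched to GENCODE release 29 (GRCh38) by identifier without version (161798 matched, 93.3% of the TPM of each library), summed per gene and compared with a pseudocount of 1 TPM at a mean TPM of at least 1. Unmatched transcripts of a gene are missed. SLC25A24 was not analysed here. The values of 1 of the 37 members are not reported here, though counts and medians over the family include it. For single-transcript genes, TPM multiplied by length less an offset (300 nt in the library lacking Dox, 310 nt in the other) clustered at whole multiples of 1 value: 77.7% and 80.2% of values between 0.5 and 5.5 fragments lay within 0.1 of a whole number. The value and the offset were fitted to these same values. A transcript of 2000 nt with 1 fragment has about 0.0398 or 0.0314 TPM. Intervals cover counting error only.

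Members at least 1.5-fold different and the 6 most abundant were described in full, and from each other list the genes past 1.5-fold or the 1 with the largest difference. MPC1, MPC2, the VDAC genes, MTCH1, the UCP genes, NRF1, GABPA and the genes overlapping carriers were named after their values were seen. The members and lists were chosen with earlier results of these data known, and the hairpin and promoter searches and the coding share per gene were added after the data were seen. Code was tested on simulated data. Python 3.11.15, pandas 2.3.3 and scipy 1.17.1 were used.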

Additional observations from a re-analysis of the deposited data

How the results depend on the processing

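With 1 library per group no replicate could be left out. No paired analysis was possible because each group has 1 library and the result comes from no test. Under 10 alternative settings (pseudocount, filter, scaling, centring, the transcripts summed, fragments, pseudogenes), the family's median log2 fold change lay between -0.10 and -0.01. The lowest was -0.10, in estimated fragments (all genes -0.02). There no carrier was at least 1.5-fold higher (0 members), since SLC25A36 was at 0.52. SLC25A36 was counted under the other 9 settings. The number at least 1.5-fold lower was 0 with a pseudocount of 5 TPM and 1, SLC25A42, when transcripts listed at 0 in 1 library were left out, which also removed SLC25A18 from the comparison. SLC25A18 was likewise absent at a mean of at least 5 TPM. SLC25A22 was at -0.14 in fragments. No gene past 1.5-fold changed direction. Of the others, 6 carriers changed sign with coding transcripts only and 6 in fragments, all of them within 0.29 of zero on the log2 scale. Depth limits SLC25A53 (28.8 and 48.8 fragments) and SLC25A18 (60.7 and 29.9) in particular. SLC25A53 was absent with coding transcripts only.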
